A study of Homo sapiens with 9 samples.

Results

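The G1/S cyclins and their kinases are taken here as 9 genes, chosen by symbol: the D-type cyclins CCND1, CCND2 and CCND3, the E-type cyclins CCNE1 and CCNE2, the kinases CDK4, CDK6 and CDK2, and the phosphatase CDC25A. They are 9 of 20435 genes in the deposited table, and each is represented by the coding span with the highest mean over the libraries. They were measured in PC9, an established line of human lung adenocarcinoma whose growth is driven by mutant EGFR, the receptor of epidermal growth factor. In all groups, untreated ones included, the cells carried the FUCCI4 reporter with mKO2-CDT1 and Clover-GMNN, fluorescent proteins that mark cell cycle phase. The untreated groups were day 0 G1 (2 libraries, clones 1 and 7), day 0 S (2 libraries, clones 1 and 7) and day 0 G2 (1 library, clone 1). The treated groups had 28 days of 500 nM osimertinib, a mutant-selective EGFR inhibitor dissolved in DMSO, and were day 28 G1 (2 libraries, clones 1 and 7), day 28 S (1 library, clone 1) and day 28 G2 (1 library, clone 1). Every population was fixed with glyoxal, permeabilised with saponin and sorted by DNA content (DAPI) and by both reporter proteins. Nothing in the labels says that libraries of a group came from separate cultures beyond the clone number, so p-values measure the spread between these libraries.

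D-type cyclins are made in response to growth factor signalling through the ERK pathway and bind CDK4 or CDK6. These kinases start to phosphorylate the retinoblastoma protein, which releases E2F transcription factors, and E2F raises cyclin E and CDC25A among other genes of S phase entry. Cyclin E activates CDK2, CDC25A removes the inhibitory phosphates from CDK2, and CDK2 completes the phosphorylation of the retinoblastoma protein.

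Upstream sequence was found in the RefSeq promoter table (build GRCh38.p14) for 5 of the 9 members: CCND3, CCNE1, CDK4, CDK6 and CDC25A. The 4 that changed in G1 at day 28 are shown, since CCNE1, CDK4 and CDC25A fell there while CDK6 rose. Each stretch begins 250 bases before the RefSeq start nearest the coding span and runs to that start or to the gene's first annotated exon. They are CDC25A (chr3:48188418-48188667, minus strand), CCNE1 (chr19:29811741-29811897, plus strand), CDK4 (chr12:57752522-57752560, minus strand, where an annotated exon leaves 39 bases) and CDK6 (chr7:92833960-92834209, minus strand), and capitals mark an E2F motif.
CDC25A: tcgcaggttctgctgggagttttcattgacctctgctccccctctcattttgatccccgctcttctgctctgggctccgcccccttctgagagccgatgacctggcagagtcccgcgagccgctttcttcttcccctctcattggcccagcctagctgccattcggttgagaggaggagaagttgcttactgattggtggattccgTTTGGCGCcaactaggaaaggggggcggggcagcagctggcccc
CCNE1: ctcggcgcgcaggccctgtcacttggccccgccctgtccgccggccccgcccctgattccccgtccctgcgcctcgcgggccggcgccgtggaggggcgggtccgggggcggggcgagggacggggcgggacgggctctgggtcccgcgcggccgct
CDK4: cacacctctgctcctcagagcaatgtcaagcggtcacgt
CDK6: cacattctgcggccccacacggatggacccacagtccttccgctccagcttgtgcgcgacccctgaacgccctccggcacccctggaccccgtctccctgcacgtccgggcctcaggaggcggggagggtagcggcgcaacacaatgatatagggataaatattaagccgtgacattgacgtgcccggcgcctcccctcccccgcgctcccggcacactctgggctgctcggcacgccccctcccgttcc
Both strands were searched for the E2F motifs TTTGGCGC, TTTCCCGC and TTTCGCGC and for the AP-1 motif TGACTCA, none of which overlapped another. CDC25A held TTTGGCGC, beginning 44 bases before the start, and this motif occurs in 0.550% of 35116 promoters of 250 bases. None of the 4 motifs was in the CCNE1, CDK4 or CDK6 stretch. In all promoters cut to 250 bases they occurred in 0.550%, 1.39%, 0.439% and 4.20%, in the order above. In those cut to the 157 bases shown for CCNE1 they occurred in 0.293%, 0.869%, 0.268% and 2.35%, and to the 39 bases shown for CDK4 in 0.0570%, 0.191%, 0.0370% and 0.421%. A match is a description of the letters and not a site.

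The deposited values are log2 of whole reads assigned to a coding span, times 1 factor per library. By its coordinates a span runs from start to stop codon with introns included. Whether reads in introns were counted is not stated and was not tested. Levels below are log2(value + 1), called log2 levels, and differences are on the same scale. Reads per kb of span per M reads, called density, are used to compare genes. The 9 libraries held 8.83 to 108.7 M reads (M for mega) over the spans, with day 0 G1 of clone 7 the shallowest and day 0 G1 of clone 1 the deepest. Summed G2 and mitosis markers (12 genes) were 528 to 1233 CPM (counts per M) in day 0 G1, 2730 to 2959 in day 0 S and 6825 in day 0 G2, and 111 to 185, 2029 and 6026 at day 28. Summed S phase markers (8 genes) did not separate S from G1 at day 0, with 1540 to 1753 CPM in G1, 1442 to 1902 in S and 810 in G2, while at day 28 they were 302 to 523 in G1, 1558 in S and 453 in G2. The 7 epithelial markers summed to 12416 to 29650 CPM, against 3.06 to 19.2 for 6 leukocyte markers and 19.2 to 53.3 for 8 fibroblast and endothelial markers. Mitochondrial genes took 6.07% to 10.7% of reads at day 0 and 8.61% to 21.6% at day 28, and spans over 300 kb took 0.726% to 1.05% and 2.06% to 3.41%. Bulk libraries cannot tell fewer cells of a kind from less RNA per cell, and apart from span length and background reads, treated below for CDK6 and CCND2, the part of these shifts in the results was not tested.

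The members differed widely in density, which is per kb of span and not per kb of messenger RNA. CDK4 was the densest, at 60.1 ± 9.27 (SD, n = 5) reads per kb per M at day 0 and 27.6 ± 8.47 (n = 4) at day 28. CDK2 followed at 7.48 ± 1.53 and 9.20 ± 3.25, then CCND3 at 4.67 ± 2.51 and 3.16 ± 1.00, and CCND1 at 3.90 ± 1.37 and 3.06 ± 1.09. The ranges of CCND3 and CCND1 overlapped on both days, and those of CDK2 and CCND3 overlapped at day 0. CCNE1 stood at 2.85 ± 1.81 and 1.31 ± 0.411, CCNE2 at 0.552 ± 0.597 and 0.821 ± 0.773, and CDC25A at 0.339 ± 0.233 and 0.205 ± 0.163. CDK6 had 0.0207 ± 0.0172 at day 0 and 0.174 ± 0.128 at day 28, over a 218 kb span of which 0.448% is coding, so its density is not that of the spliced messenger RNA. CCND2, at 0.00297 ± 0.00571 and 0.0277 ± 0.0443, had the lowest mean on both days. Its range overlapped that of CDK6 on both days. In day 28 G2 it stood at 0.0939, above CDK6 (0.0547) and CCNE2 (0.00184). In this order neighbours from CCND3 to CDC25A overlapped in range on both days, except CCND1 and CCNE1 at day 28, while CDK4 lay above all others on both days. The coding share was 8.88% for CCND1, 22.5% for CDK2 and 28.5% for CDK4, so this order need not be that of messenger RNA. Divided by coding length instead, CCND1 exceeded CDK2 at day 0 except in G1 of clone 7 (24.3 against 33.0). At day 28 it did so only in G1 of clone 7 (35.7 against 22.9). CDK6, with any intron reads still included, then stood at 64.3 and 63.1 in day 28 G1, against 76.0 and 78.5 for CDK4. In day 28 S CDK6 stood at 16.1 and CDK4 at 140.

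**Figure D1:**
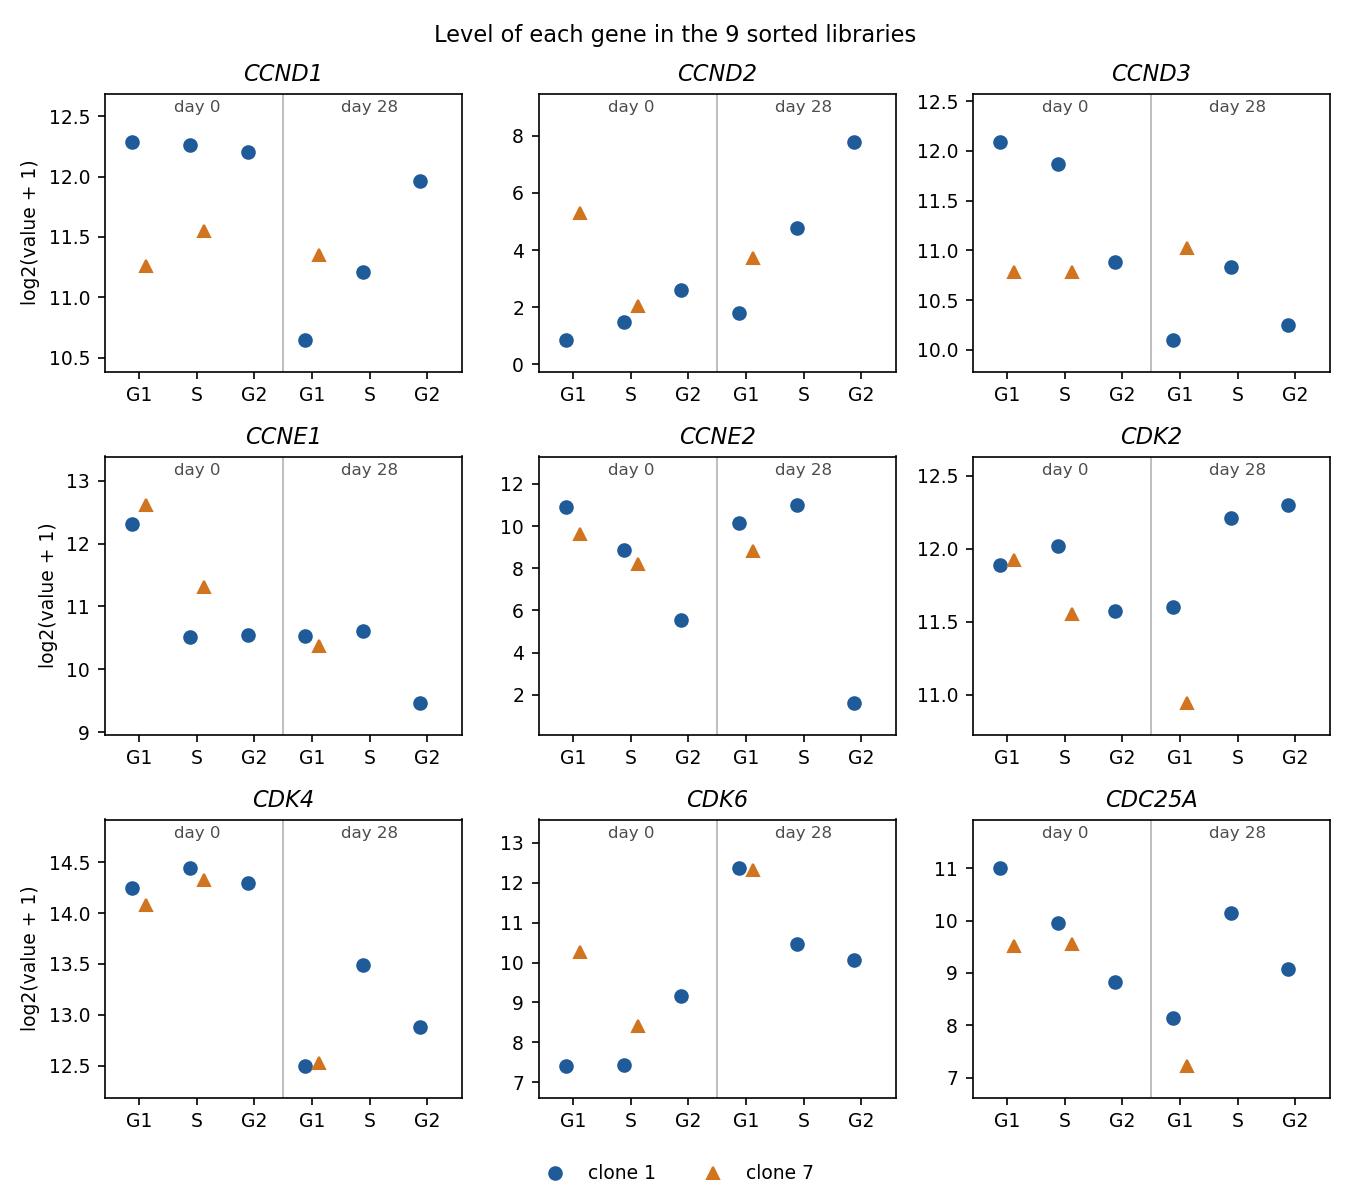
Log2 level (log2(value + 1)) of each of the 9 members in each library, by phase and day, with clone 1 and clone 7 marked apart; every point is 1 library. CDK4 lies between 14.08 and 14.44 in every day 0 library and between 12.50 and 13.49 at day 28, while CCNE2 spans 1.62 to 10.97 at day 28.

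In the comparison of day 28 with day 0 at equal phase, CDK6 was 6.09-fold higher and CDK4 and CCNE1 were 2.58-fold and 2.41-fold lower. The test was limma on log2(value + 1) over 12385 genes with Benjamini-Hochberg adjustment, 5 libraries against 4, with phase as a term. It called 3 of the 8 members tested, against 55.1% of all genes (28.5% higher, 26.6% lower), so the members were called no more often than the background. Their median difference was -0.66, against 0.01 over all genes. Only CDK4 among the 9 had no overlap between the days, and of all genes 39.7% had none.

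CCND1 (ENSG00000110092, chromosome 11, 69641314 to 69651282, plus strand, 9.97 kb) encodes cyclin D1. Its log2 levels at day 0 were 12.28 and 11.26 in G1 (clones 1 and 7), 12.26 and 11.55 in S and 12.20 in G2, and at day 28 they were 10.65 and 11.35 in G1, 11.21 in S and 11.97 in G2. The days overlapped, because both clone 7 libraries of day 0 lay below the day 28 G2 library. In clone 1 the difference was -1.64 in G1, -1.05 in S and -0.23 in G2, and in clone 7 G1 it was 0.10. The fit gave -0.62 ± 0.27 (SE, limma adjusted p = 0.0728), which did not pass. Clone 1 alone gave -0.97, from 1 library per day and phase, so the phases of 1 clone stood in for replicates.

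CCND3 (ENSG00000112576, chromosome 6, 41935940 to 41941649, minus strand, 5.71 kb) encodes cyclin D3. In log2 level it stood at 12.08 and 10.79 in G1, 11.87 and 10.79 in S and 10.89 in G2 at day 0, and 10.10 and 11.03 in G1, 10.83 in S and 10.25 in G2 at day 28. As for CCND1, the day 0 libraries of clone 1 in G1 and S were the highest and the clones differed in direction: -1.99 in clone 1 and 0.24 in clone 7 for G1. The fit gave -0.70 ± 0.34 (limma adjusted p = 0.0955), which did not pass. Clone 1 alone gave -1.22, again from 1 library per day and phase. Without day 0 G1 of clone 7 both cyclins passed, at -0.78 (CCND1, adjusted p = 0.0339) and -0.91 (CCND3, 0.0403), and without day 0 S of clone 7 CCND3 passed at -0.85 (0.0434). Median-of-ratios scaling called CCND1 (-0.74, adjusted p = 0.0451), quantile scaling called CCND3 (-0.94, 0.0432), and limma voom called both (0.0422 and 0.0457). The narrowest deposited span of CCND3 gave -1.78 (0.0304).

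CCND2 (ENSG00000118971, chromosome 12, 4274041 to 4300009, plus strand, 26.0 kb) encodes cyclin D2. It had 0 and 3 reads in day 0 G1 (clones 1 and 7), 0 and 0 in day 0 S, 2 in day 0 G2, 0 and 5 in day 28 G1, 12 in day 28 S and 105 in day 28 G2. Of its 127 reads 82.7% were thus in 1 library, day 28 G2. With reads scaled by the factor of each library, day 28 G2 stood at 42.3 times day 0 G2 (95% exact interval 11.4 to 354, for counting error only, 1 library each). Below the filter on low values, the gene entered only a fit with no filter, which gave 1.97 ± 1.06 at equal phase (limma adjusted p = 0.155) and 3.51 ± 1.43 for S and G2 against G1 at day 28 (0.156), the 2 lowest adjusted p-values of its 8 comparisons. Reads over olfactory receptor genes, which these cells should not express, stood at 0.00350 reads per kb per M in day 0 G2 and 0.0270 in day 28 G2. At that density the CCND2 span would hold 4.02 and 30.2 reads in these libraries, so the 2 and 105 observed were 0.498 and 3.48 times the background. Day 28 S (0.886 times) and day 28 G1 of clone 7 (0.710 times) were below it, and day 0 G1 of clone 7 was 2.70 times it with 3 reads. The libraries with 0 reads would hold 6.06 (day 0 G1 of clone 1), 1.36 and 0.927 (day 0 S of clones 1 and 7) and 6.55 (day 28 G1 of clone 1). The density thus put more reads on the span there than were found, and it takes reads in introns as counted. In the plot of levels by library, a library with 0 reads stands at the deposited entry of 0.9 reads. A count of 0 allows up to 3 reads, or 0.0276 to 0.0992 reads per M in the libraries at 0. AC008012.1 lies on the same strand within the span in GENCODE v29, and the reads of both cannot be told apart.

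CDK4 (ENSG00000135446, chromosome 12, 57748525 to 57751717, minus strand, 3.19 kb) encodes the kinase partner of D-type cyclins. CDK4 had log2 levels of 14.25 and 14.08 in G1, 14.44 and 14.33 in S and 14.30 in G2 at day 0, and 12.50 and 12.53 in G1, 13.49 in S and 12.88 in G2 at day 28. Every day 28 library lay below every day 0 library, and the 5 untreated libraries kept between 14.08 and 14.44. The difference was -1.36 ± 0.18 (limma adjusted p = 0.000189), and it was -1.75, -1.56, -0.95 and -1.42 in the matched G1 clone 1, G1 clone 7, S and G2 libraries. It passed without each library in turn, from -1.57 to -1.28.

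CDK6 (ENSG00000105810, chromosome 7, 92615140 to 92833323, minus strand, 218 kb) encodes the other kinase partner of D-type cyclins. CDK6 had log2 levels of 7.40 and 10.26 in G1, 7.43 and 8.41 in S and 9.17 in G2 at day 0, and 12.36 and 12.32 in G1, 10.47 in S and 10.05 in G2 at day 28. The day 28 G1 libraries were the highest, and day 0 G1 of clone 7 exceeded day 28 G2, so the days overlapped in that 1 library. The difference was 2.61 ± 0.57 (limma adjusted p = 0.00291), and it was positive in all 4 matched pairs: 4.95 and 2.06 in G1 of clones 1 and 7, 3.04 in S and 0.88 in G2. It passed without each library in turn, from 1.92 to 3.13.

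CDK6 moved the opposite way from CDK4, and its span is the longest of the members. Long spans were higher at day 28 in general: of 726 tested spans of 150 to 300 kb, 453 rose, with a median of 1.04, and 8.68% lay at or above CDK6. Of 3272 spans of up to 10 kb 1239 fell and 518 rose, with a median of -0.42. With the trend on span length removed, CDK6 was 1.48 ± 0.50 higher (adjusted p = 0.0297), so the difference shrank by more than 1.5 times and still passed. Limma voom gave 3.30 ± 0.56.

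**Figure D2:**
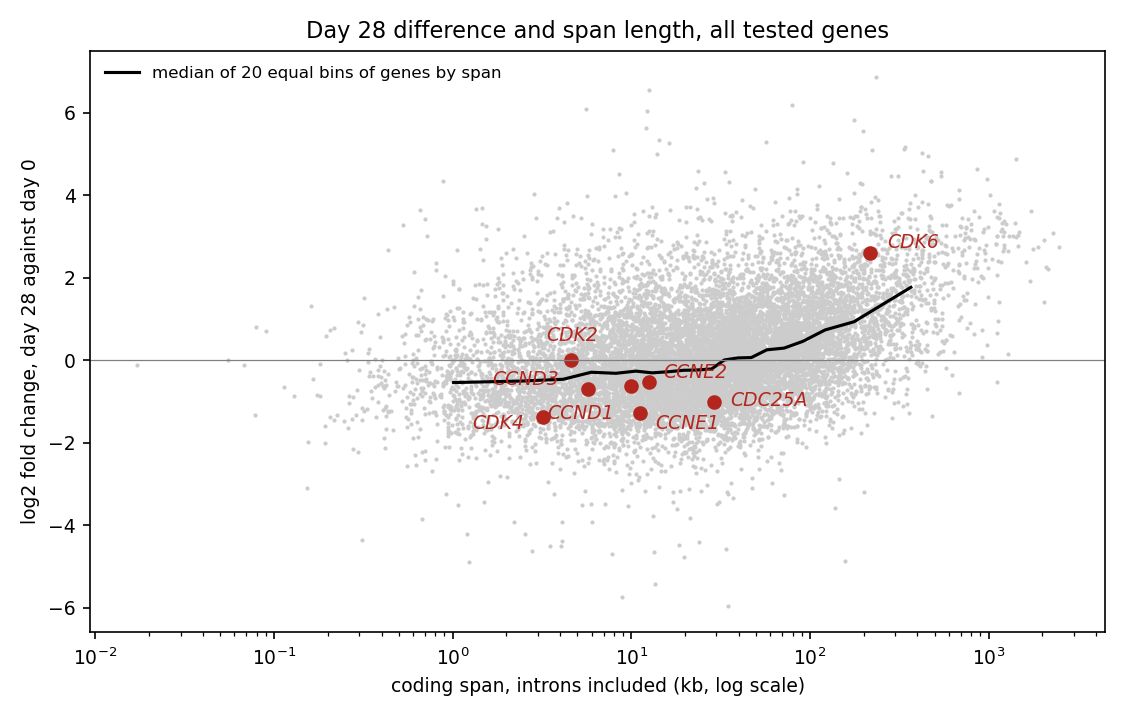
Log2 difference of day 28 against day 0 (vertical axis) by the length of the coding span in kb (log scale) for all tested genes in grey and the 8 tested members in red; the line joins the medians of 20 equal bins of genes. The median rises with span length, CDK6 (2.61) lies above the line and CDK4 (-1.36) and CCNE1 (-1.27) below it.

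Reads over the same 400 olfactory receptor genes give a background for such a long span, provided that reads in introns were counted. They had 0.00111 to 0.00486 reads per kb per M at day 0 and 0.00810 to 0.0270 at day 28. At that density the CDK6 span would hold 50.9 and 9.35 reads in day 0 G1 (clones 1 and 7) against 190 and 95 observed, 3.73 and 10.2 times as many. In day 28 G1 it held 1918 and 2067 reads, 34.8 and 34.9 times the background. Day 0 S held 85 and 97 reads (7.44 and 12.5 times) and day 28 S 642 (5.64 times), and G2 held 225 at day 0 (6.67 times) and 514 at day 28 (2.03 times). The ratio to background was thus higher at day 28 in G1 and lower in S and G2, with no interval computed. It rests on 15 to 98 olfactory reads per library at day 0 and 106 to 488 at day 28. In S of clone 1 the fall from 7.44 to 5.64 was not tested against counting error. As density above background, clone 1 went from 0.00713 to 0.0593 reads per kb per M in S and from 0.0198 to 0.0277 in G2. With this background subtracted, a choice made after the data were seen, the difference at equal phase was 2.52 ± 0.70 (limma adjusted p = 0.0124), and in S 2.43 ± 1.14 (0.2), which did not pass.

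CCNE1 (ENSG00000105173, chromosome 19, 29812556 to 29823777, plus strand, 11.2 kb) encodes cyclin E1. Log2 levels were 12.31 and 12.61 in G1, 10.51 and 11.31 in S and 10.55 in G2 at day 0, and 10.54 and 10.37 in G1, 10.61 in S and 9.46 in G2 at day 28. Untreated G1 held the 2 highest levels, and the days overlapped, since day 28 S lay 0.10 above day 0 S of clone 1. The difference at equal phase was -1.27 ± 0.31 (limma adjusted p = 0.0055), and it passed without each library in turn, from -1.70 to -1.08.

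CCNE2 (ENSG00000175305, chromosome 8, 94881632 to 94894221, minus strand, 12.6 kb) encodes cyclin E2. Its log2 levels were 10.89 and 9.64 in G1, 8.87 and 8.20 in S and 5.56 in G2 at day 0, and 10.17 and 8.80 in G1, 10.97 in S and 1.62 in G2 at day 28. G2 was the lowest group on both days, with 18 reads at day 0 and 1 at day 28. With reads scaled by the factor of each library, the ratio of day 28 to day 0 was 0.0448 (95% exact interval 0.00108 to 0.284, counting error only, 1 library each). The matched differences had both signs, -0.72 and -0.84 in G1, 2.105 in S and -3.94 in G2. At equal phase it did not pass (-0.52 ± 0.81, limma adjusted p = 0.606), and without either G2 library the value was 0.51.

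CDK2 (ENSG00000123374, chromosome 12, 55967009 to 55971625, plus strand, 4.62 kb) encodes the partner of E-type cyclins. Its log2 levels were 11.89 and 11.93 in G1, 12.02 and 11.56 in S and 11.58 in G2 at day 0, and 11.60 and 10.94 in G1, 12.21 in S and 12.30 in G2 at day 28. The day 28 libraries lay on both sides of the day 0 range, below it in clone 7 G1 and above it in S and G2. At equal phase the difference was 0.00 ± 0.27 (limma adjusted p = 0.997), and on the narrowest deposited span, its first 120 bases, it was -1.41 ± 0.44 (0.02).

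CDC25A (ENSG00000164045, chromosome 3, 48158945 to 48187947, minus strand, 29.003 kb) encodes the phosphatase that activates CDK2. Its log2 levels were 10.996 and 9.52 in G1, 9.95 and 9.55 in S and 8.82 in G2 at day 0, and 8.15 and 7.22 in G1, 10.15 in S and 9.08 in G2 at day 28. Both day 28 G1 libraries were below every other library, whereas S and G2 at day 28 were within the day 0 range. At equal phase the difference was -1.01 ± 0.56 (limma adjusted p = 0.147), which did not pass, and quantile scaling called it (-1.55, 0.0391).

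**Figure D3:**
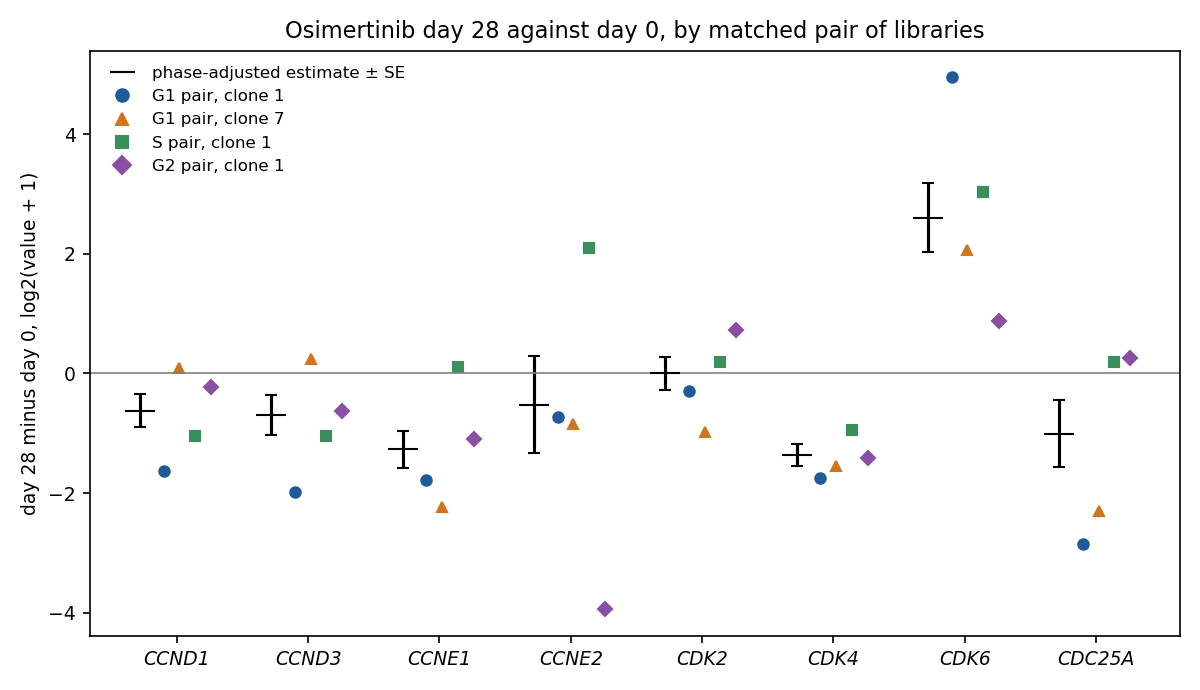
Difference in log2 level, day 28 minus day 0, for each tested member in the 4 matched pairs of libraries (G1 clone 1, G1 clone 7, S and G2). CDK4 is below 0 and CDK6 above 0 in all 4 pairs, and CCNE2 runs from -3.94 in G2 to 2.105 in S.

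Within G1, CDK6 was higher at day 28 and CCNE1, CDK4 and CDC25A were lower. Here 4 of 8 members were called (2 libraries against 2), against 39% of all genes (19.8% higher, 19.2% lower). CDK6 was 11.4-fold higher (log2 difference 3.51 ± 0.84, limma adjusted p = 0.0158), and CDC25A was 5.96-fold lower (-2.58 ± 0.58, 0.0131). CCNE1 was 4.01-fold lower (-2.004 ± 0.35, adjusted p = 0.00584) and CDK4 3.15-fold lower (-1.65 ± 0.23, 0.00342). The other 4 had values from -0.64 (CDK2) to -0.87 (CCND3) and did not pass. CDK6 lost its call without day 28 G1 of clone 1 (3.49, adjusted p = 0.0915) or of clone 7 (3.53, 0.0816), and was 2.08 without day 0 G1 of clone 1, with 2.33 ± 0.69 (0.0351) after the span trend was removed. CDC25A lost its call without day 28 G1 of clone 7 (-2.11, adjusted p = 0.0764) and on its narrowest deposited span (-1.50, 0.314).

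Within S, no member passed when day 28 (1 library) was set against day 0 (2 libraries), where 7.27% of all genes did (4.38% higher, 2.9% lower). At an unadjusted p under 0.05 limma had 3 of the 8, and voom called 1. The largest values were 2.55 ± 1.03 for CDK6 (limma adjusted p = 0.14), 2.44 ± 0.82 for CCNE2 (0.095) and -0.89 ± 0.28 for CDK4 (0.08). The lone day 28 S library was assumed to vary like the other groups. With the clone as a replicate block CDK4 passed, at -0.93 (adjusted p = 0.048), and the count over all genes went from 901 to 1936. CCNE2 passed by voom (2.38, adjusted p = 0.0495), and CDK6 passed at 2.55 without day 0 G1 of clone 1 (0.0262) or of clone 7 (0.0278).

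Between S and G1 of untreated cells no gene passed, members included. With 2 libraries each, limma called 0% of 12385 genes and voom 0, with 443 at an unadjusted p under 0.05. The largest member values were -1.73 ± 0.67 for CCNE2 (adjusted p = 0.999) and -1.55 ± 0.35 for CCNE1 (0.804). For CCNE1 both S libraries lay below both G1 libraries. At day 28, S and G2 together (2 libraries) were compared with G1 (2 libraries), which called 4.75% of all genes (2.9% higher, 1.85% lower) and 1 of 8 members. CCNE2 was lower, at -3.19 ± 0.67 (limma adjusted p = 0.0425), although its day 28 S library was above both G1 libraries and the mean was carried by the G2 library with 1 read. The CCNE2 call was lost without day 28 G1 of clone 1 (-2.50, adjusted p = 0.145) or clone 7 (-3.87, 0.126), and without day 0 S of clone 1 (0.0587) or clone 7 (0.0569), and it was -2.59 (0.0685) with a pseudocount of 5. CDC25A was 1.93 ± 0.58 higher (0.0974) and CDK6 2.08 ± 0.84 lower (log2 difference -2.08, 0.178), neither of which passed, while voom called CDK6 (0.0446).

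G2 against S, averaged over both days, gave -6.17 ± 0.63 for CCNE2, the largest member difference of the 8 comparisons. It did not pass over all genes (limma adjusted p = 0.168), where 0% of genes did (1066 at an unadjusted p under 0.05, 0 by voom), and with a replicate block for the clone it passed, at -6.44 (adjusted p = 0.0296). With reads scaled by the factor of each library, the S to G2 ratio of clone 1 was 10.1 at day 0 (231 and 18 reads, 95% exact interval 6.25 to 17.4). At day 28 it was 972 (908 and 1 reads, interval 174 to 38427). The intervals are for counting error only. The other 7 members ran from -0.997 (CDC25A) to 0.53 (CCND1).

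The day-by-phase term asked whether the difference of day 28 from day 0 in S and G2 together departed from that in G1. No gene passed (0% called by limma, 1381 at an unadjusted p under 0.05, 0 by voom). CDC25A had the largest member value, 2.91 ± 0.74 (adjusted p = 0.256), followed by CDK6 at -1.67 ± 1.10 (0.613), CCNE1 at 1.37 ± 0.48 (0.358) and CDK2 at 1.19 ± 0.41 (0.348). Between clones, 0.614% of all genes were called and 0 members by limma (0 at an unadjusted p under 0.05, 0 by voom). CCNE2 was 1.62 lower (log2 difference -1.62 ± 0.82, limma adjusted p = 0.371), CDK6 1.19 ± 0.57 higher (0.347) and CDC25A at -1.16 ± 0.56 (0.347) in clone 7.

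The deposited spans that share an end allowed some members to be cut into a 5′ and a 3′ part, a split chosen after the data were seen. In 5 members both parts passed the filter on low values. CCNE2 was also cut, but at least 1 of its parts did not pass, so it was not tested here. CDK4 lost more of its 5′ part (1238 bases) than of its 3′ part: -2.0025 ± 0.22 (limma adjusted p = 4.47e-05) against -0.95 ± 0.20 (0.00255). The share of CDK4 reads in the 5′ part was 39.1% to 52.7% at day 0 and 27.5% to 33.5% at day 28, with no overlap. The difference of the 2 parts was -1.05 ± 0.24 (adjusted p = 0.0118), where 16.2% of 5545 genes had a lower and 12.7% a higher 5′ share at this threshold and the median over all was -0.23. CDK2 had the same form, with -1.41 ± 0.43 (0.0158) in its 120-base 5′ part, 0.08 ± 0.28 (0.832) in the rest and a difference of -1.49 ± 0.35 (0.0123). Its 5′ share was 5.30% to 10.0% at day 0 and 2.12% to 4.26% at day 28, again with no overlap. The opposite-strand PMEL overlaps CDK2 and the TSPAN31 gene overlaps CDK4 in GENCODE v29. CCND1 (-0.47, adjusted p = 0.181), CCNE1 (-0.43, 0.266) and CDC25A (0.17, 0.837) did not differ between parts past the threshold. The median log2 ratio of the 5′ to the 3′ part over all 5545 genes was -0.03 to 0.22 in day 0 libraries and -0.21 to 0.02 in day 28 libraries, and its part in these differences was not tested.

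**Figure D4:**
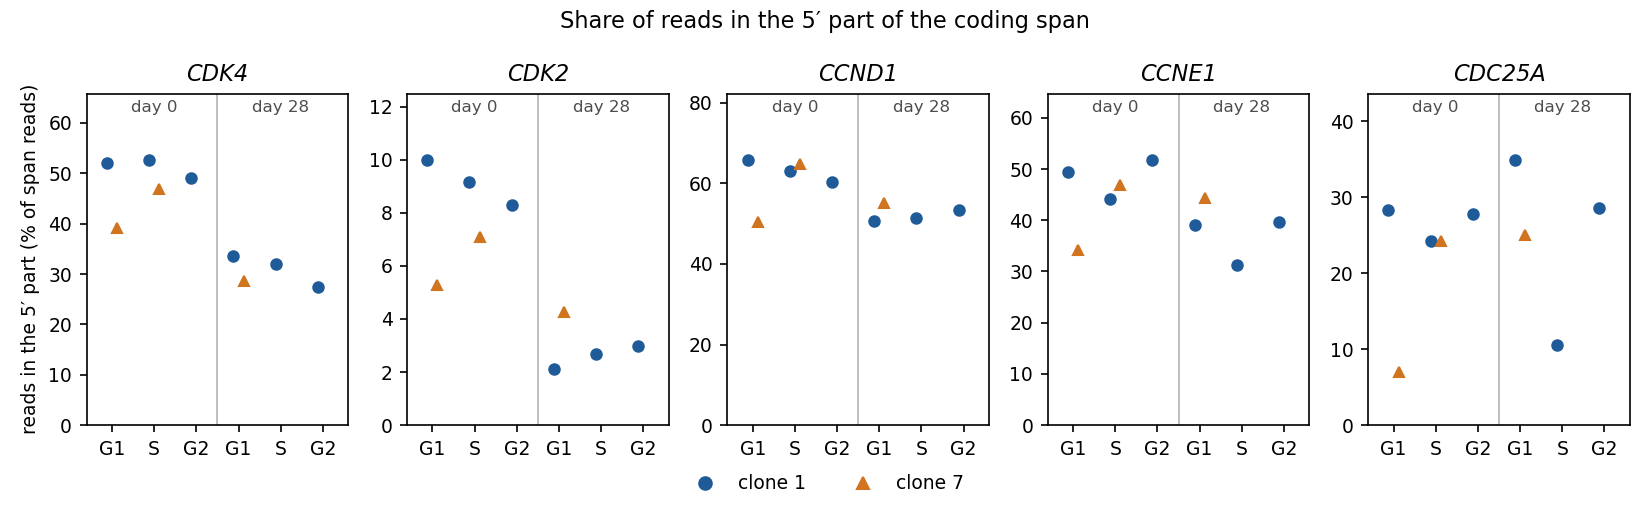
Share of each gene's reads in the 5′ part of its coding span (percent), by library, day 0 against day 28. The members shown are those cut with both parts above the filter on low values. For CDK4 the day 0 libraries lie at 39.1% to 52.7% and the day 28 libraries at 27.5% to 33.5%, and for CDK2 at 5.30% to 10.0% and 2.12% to 4.26%.

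The genes most like each member in pattern over the 9 libraries were picked by Pearson r among 8521 others, as a description only, since the libraries share days, phases and clones. CDK4 was followed by PGD (0.996), IPO5 (0.994) and NOLC1 (0.994), and CDK6 by LARP1B (0.993), CAMKMT (0.986) and BRD10 (0.985). CDC25A was followed by MCM10 (0.962), a replication factor, and SLC10A3 (0.951). CCNE1 was followed by MSH6 (0.933), a mismatch repair gene, MAPK12 (0.925) and S100P (0.924), and CCND1 by NDUFA8 (0.963), PRKCQ (0.957) and ATG13 (0.948). The nearest to CCND3 was SOCS6 (0.962), to CCNE2 ZBTB14 (0.926) and to CDK2 IL17RA (0.926). CDK4 and CDK6 themselves had r = -0.880.

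The genes around this switch were described by lists, beside the shares of all genes called (28.5% higher and 26.6% lower at equal phase). Of 32 E2F targets of S phase entry, 20 fell at day 28 and 0 rose at equal phase, with a median of -1.38 against 0.01 for all genes. In G1 25 fell (19.2% of all genes did), with a median of -2.28. This list holds most of the S phase markers summed above, RRM2 among them, so it partly repeats that result. In G1, RRM2 (a ribonucleotide reductase subunit) was at -3.22 ± 0.43 (limma adjusted p = 0.0034), GINS2 (a part of the replicative helicase) at -2.85 ± 0.43 (0.00416) and PRIM1 (DNA primase) at -2.83 ± 0.32 (0.00246). Between phases at day 28, S and G2 against G1, 12 of the 32 rose (2.9% of all genes did) and 0 fell, with a median of 1.24, and RRM2 was 2.84 ± 0.43 higher (0.0163).

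Of 10 CDK inhibitors and pocket proteins, 2 rose and 1 fell at equal phase, no larger shares than over all genes (28.5% and 26.6%), with a median of 0.12. CDKN2B, which inhibits CDK4 and CDK6, rose by 1.62 ± 0.30 (limma adjusted p = 0.00113) and RBL2, a pocket protein of resting cells, by 1.42 ± 0.20 (0.000267), while CDKN1C was at -1.09 ± 0.42 (0.0433). Of 10 E2F and DP factors 2 rose and 3 fell, shares near those of all genes, with a median of -0.33. TFDP2 rose by 1.30 ± 0.17 (adjusted p = 0.000181) and E2F3 by 1.24 ± 0.36 (0.0119), and TFDP1 was at -0.99 ± 0.20 (0.00195) and E2F8 at -1.04 ± 0.39 (0.0415).

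Of 23 genes of CDK activation and cyclin turnover, 6 rose and 8 fell, beside 28.5% and 26.6% of all genes, which is near the background, with a median of -0.25. CKS1B, a CDK subunit used in p27 turnover, was at -2.03 ± 0.36 (limma adjusted p = 0.000885), SKP1, a part of the SCF ubiquitin ligase, at -1.56 ± 0.21 (0.000172), CKS2 at -1.18 ± 0.29 (0.00526) and FBXO4 at -1.10 ± 0.36 (0.021). Of 19 tested ERK outputs and transcription factors upstream of cyclin D1, 5 rose and 10 fell, beside 28.5% and 26.6% of all genes, with a median of -0.90. ETV4, an ETS factor, fell by 3.18 ± 0.38 on the log2 scale (adjusted p = 9.79e-05), and DUSP4, a phosphatase of ERK, by 3.77 ± 0.49 (0.00016). The other 2 named by the rule, DUSP6 and PHLDA1, fell as well.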

How the data were processed

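Poly(A) RNA of 9 libraries was read as 75 bp single-end, strand-specific sequence after 10 to 18 PCR cycles, per the labels' protocols. The submitters' processing notes name HISAT2 2.1.0, build GRCh38 and, with no version, DESeq2. The counter and scaling are not given in the sources used here. The authors deposited log2 values for 80037 coding transcripts. Checked from the values, these are whole reads times 1 factor per library (100% of values up to 1000 reads within 0.05 of whole), with 0.9 reads entered for none. Depth was 8.83 to 108.7 M reads over the spans, and intervals cover counting error only. Members and lists were chosen with earlier results of these data known.

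Each gene took its span with the highest mean. A filter kept genes whose mean log2 reached 7.01 (10 reads in the library with the fewest), 12385 genes and 8 of 9 members. CCND2 did not pass this filter. Tests used limma 3.58.1 (lmFit, eBayes with trend) in R 4.3.3 on log2(value + 1), with Benjamini-Hochberg adjusted p under 0.05 over all genes, and were tested on simulated data. Python 3.11.15, pandas 2.3.3 and scipy 1.17.1 did the rest. Comparisons within a phase or day used 6 group means with 1 pooled spread. All members were named, with up to 4 called genes of each list that changed most and the 3 genes most like each member. A gene that this rule names is not reported here. Clone numbers were used to pair the libraries for the matched differences only. The main fits, apart from that of clone 7 against clone 1, had no clone term. How far clone 7 departed from clone 1 correlated at 0.653 within day 0, between G1 and S. Across days, day 28 G1 correlated with day 0 G1 at 0.116 and with day 0 S at 0.296. Alternatives were median-of-ratios and quantile scaling, the clone as a block, no filter, a minimum of 1 CPM in 4 libraries, a pseudocount of 0.1 or 5, the narrowest span, a span trend removed, limma voom on recovered reads, each library left out, clone 1 alone, the 4 G1 libraries and the mean of phases; background subtraction and the 5′ and 3′ parts were added after the data were seen.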

Additional observations from a re-analysis of the deposited data

Results flagged for a closer look

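Some members moved in opposite directions from day 0 to day 28 in different phases, in every pair of libraries of the phases concerned. CCNE2 was higher at day 28 in S, where the day 28 library exceeded both day 0 libraries, and lower in G2, at -3.94 on the log2 scale. CDK2 was lower in both G1 libraries than in either day 0 G1 library, higher in S by 0.421 and higher in G2 by 0.72. CDC25A was lower in G1, higher in S by 0.395 and higher in G2 by 0.263. None of these differences between 2 single phases was tested, and the S and G2 values rest on 1 day 28 library each. With S and G2 in 1 term, the day-by-phase term gave 2.91 for CDC25A (limma adjusted p = 0.256) and 1.19 for CDK2 (0.348). Libraries were not searched for 1 that stands apart within its group, since no group has more than 2.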

How the results depend on the processing

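At equal phase 3 members were called at day 28, and 5 with quantile scaling, on the narrowest span or by voom. With 1 library left out the count was 3 to 5. Clone 1 alone had 1 library per day and phase, so its count is not given. In G1 4 were called, and 2 to 4 with 1 library left out, 2 without day 28 G1 replicate 7. In S 0 were called, and 1 with the clone as a replicate block, on the narrowest span or by voom (0 to 1 with 1 library left out). For S and G2 against G1 at day 28, 1 was called, 0 with a pseudocount of 5 and 2 by voom (0 to 2 with 1 library left out). For G2 against S 0 were called, and 1 with no filter, with the replicate block or on the narrowest span. The clone block changed no other member call. The causes were not tested.

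On the narrowest span the sign reversed for CDK2 at equal phase (-1.41) and in S (-1.17), CDC25A in S (-0.80) and in S against G1 at day 0 (0.27), CDK4 in G2 against S (0.077) and between clones (0.075), and CCND3 for day by phase (-0.80). With 1 library left out, CCNE2 at equal phase ran from -1.84 (without day 28 S) to 0.51 (without either G2 library), and for day by phase from -3.16 to 3.22. In S against G1 at day 0, leaving out day 0 G1 replicate 1 or 7 gave the ends of the ranges: CCND1 -0.38 to 0.65, CCND3 -0.75 to 0.54, CDK6 -2.34 to 0.52 and CDC25A -1.24 to 0.23. Between clones CCND1 ran from -0.68 to 0.039.

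Over all genes, day 28 in S called 901, 2578 with no filter, 1936 with the replicate block, 1731 by voom, 550 with background subtracted and 0 to 1670 with 1 library left out. S and G2 against G1 called 588, 1568 with quantile scaling, 1156 with no filter, 1131 by voom and as few as 46 with 1 library left out. G1 called as few as 2511 of 4828. Counts of 0 became 2 for S against G1 at day 0 with no filter; 29, 1 and 126 for G2 against S with no filter, the block and the narrowest span; and 56 for day by phase without day 28 G1 replicate 1. Between clones 76 became 19 to 163 across settings, and 9 to 334 with 1 library left out. The median of all genes moved from 0.01 to -0.10 and -0.14 with median-of-ratios and quantile scaling. The split of calls in S, 542 higher and 359 lower, became 535 and 614 with median-of-ratios scaling, and for S and G2 against G1, 359 and 229 became 775 and 793 with quantile scaling. Fits that need the only library of a group could not be made without it. Depth limits values from few reads, such as CCNE2 in G2 (18 reads at day 0, 1 at day 28) and CCND2, with 0 reads in 4 libraries.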
